A study of Mus musculus with 19 samples.

Results

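The expression of 38 genes of the cell division cycle was examined in mouse tissues, in inguinal white adipose tissue (iWAT) and in brown adipose tissue (BAT). The 38 genes were taken by symbol, and each symbol matched 1 gene in each of the deposited tables, which list 55573 genes for 7 tissues, 55487 for BAT and 13756 for iWAT. There were 19 RNA-Seq libraries. The 7 tissues came from C57BL/6J wild-type (WT) mice on chow, and 1 library was made of each of small intestine, white adipose tissue (WAT), BAT, brain, liver, heart and tibialis anterior muscle (TA). For iWAT and for BAT, 3 libraries of WT and 3 of MCK-Musclin mice were compared. All 12 were from male mice on chow, 5 months old, after 1 week at 8 °C. MCK-Musclin mice carry the coding sequence of *Musclin*, a secreted muscle peptide that the tables list as *Ostn*, under the MCK (muscle creatine kinase) promoter, which acts in skeletal muscle, on a C57BL/6J background. Several founder lines were made, and which of them gave these libraries is not given in the sources used here. The comparison asks how gene expression in fat differed when more of this peptide came from muscle. Every value is an FPKM, the number of fragments of a gene per kilobase of its exons and scaled to the mapped fragments of the library, so levels can be set side by side between genes.

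Dividing cells copy their DNA in S phase and separate the copies in mitosis, and most of the genes that serve these steps are transcribed only while a cell is cycling. Entry into S phase is driven by E-type cyclins and the transcription factor E2F1. E2F factors act on genes of DNA replication such as those of the MCM helicase, while the mitotic genes are kept silent in resting cells by the DREAM complex, which reads a promoter element named CHR (cell cycle genes homology region), and are later switched on by B-MYB and FOXM1 with help from CCAAT boxes. Mature adipocytes do not divide. In adult fat, proliferation is known from progenitors, endothelial cells, macrophages and lymphocytes, the last of which are dense in the lymph node that lies inside the inguinal depot. The genes were read in 2 groups, 16 of S phase (entry, origin licensing and firing, deoxynucleotide supply and the checkpoint kinase gene *Chek1*) and 22 of mitosis (G2/M regulators, chromosome and spindle genes, and genes of mitotic exit and cytokinesis).

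The markers of each labelled tissue were highest in that tissue, for example *Myh4* in TA, *Adipoq* in WAT and *Vil1* in small intestine. In BAT *Ostn* had no FPKM in any WT library (3 values of 0) and 37.9, 31.6 and 30.3 FPKM in the MCK-Musclin libraries. In iWAT it was listed at 0, 0 and 0.225 FPKM in WT and at 0, 5.17 and 4.21 FPKM in MCK-Musclin libraries, so that MCK-Musclin library 1 of iWAT did not show the transgene. The fast muscle gene *Tnnc2* was low in that library (3.09 FPKM) and in WT library 1 (1.96 FPKM), and it was between 55.6 and 1829 FPKM in the other 4 iWAT libraries. In BAT *Tnnc2* was 180, 250 and 145 FPKM in WT and 552, 247 and 374 FPKM in MCK-Musclin libraries. The part of muscle RNA in the *Ostn* values of either depot was not tested. The number of reads is not given by these values. Low values gave a depth relative to heart of 0.917 to 1.05 in the 7 tissues and relative to WT library 1 of 0.889 to 1.11 in BAT, and gave none in iWAT. In each depot a single library stood apart from the others of its genotype for these genes. In iWAT this was WT library 3 and in BAT MCK-Musclin library 1, in both cases through higher mitotic genes. In such bulk samples more dividing cells and more RNA per dividing cell cannot be told apart.

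Promoters are shown for *Top2a* and *Mki67*, mitotic genes with a wide range between tissues, and for *Mcm5* and *Mcm6*, S phase genes described below in iWAT and in BAT. Each is the 250 bases before the start of transcription (RefSeq, GRCm38.p6), printed 5′ to 3′ on the gene's own strand. Capitals mark CHR (TTTGAA), the CCAAT box (CCAAT) and E2F words (TTTCCCGC, TTTGGCGC, TTTCGCGC or TTTGCCGC), each searched on both strands. E2F words can overlap each other, as they do in *Mcm5* and *Mcm6*.
Top2a (chr11:99024190-99024439, minus strand): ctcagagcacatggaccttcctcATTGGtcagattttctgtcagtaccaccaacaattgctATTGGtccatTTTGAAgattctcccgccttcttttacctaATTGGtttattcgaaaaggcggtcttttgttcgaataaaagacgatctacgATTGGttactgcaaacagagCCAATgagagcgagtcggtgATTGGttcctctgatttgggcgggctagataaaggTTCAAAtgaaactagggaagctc
Mki67 (chr7:135716380-135716629, minus strand): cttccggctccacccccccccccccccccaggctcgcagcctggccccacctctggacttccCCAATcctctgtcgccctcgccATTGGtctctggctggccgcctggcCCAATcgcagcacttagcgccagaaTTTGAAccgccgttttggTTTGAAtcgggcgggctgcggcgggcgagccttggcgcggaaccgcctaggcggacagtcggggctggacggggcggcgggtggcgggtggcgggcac
Mcm5 (chr8:75109259-75109508, plus strand): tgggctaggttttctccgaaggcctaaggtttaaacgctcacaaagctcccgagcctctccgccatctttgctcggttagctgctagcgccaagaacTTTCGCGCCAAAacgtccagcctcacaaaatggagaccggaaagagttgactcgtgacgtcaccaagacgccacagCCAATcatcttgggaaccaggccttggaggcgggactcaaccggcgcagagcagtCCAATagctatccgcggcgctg
Mcm6 (chr1:128359706-128359955, minus strand): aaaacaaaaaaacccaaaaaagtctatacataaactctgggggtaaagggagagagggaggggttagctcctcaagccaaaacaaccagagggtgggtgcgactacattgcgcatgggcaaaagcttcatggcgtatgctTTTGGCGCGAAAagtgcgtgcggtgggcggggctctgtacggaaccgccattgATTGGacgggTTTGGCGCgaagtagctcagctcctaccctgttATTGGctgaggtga
*Top2a* and *Mki67* hold 2 CHR words each and no E2F word, while *Mcm5* and *Mcm6* hold E2F words and no CHR. *Top2a* also has 6 CCAAT boxes. The set of RefSeq promoters used here had 32 entries for 31 of the 38 genes, which were searched over 300 bases (250 before and 50 from the start on). It had no entry for *Ccne2*, *Mcm4*, *Ccna2*, *Foxm1*, *Aurkb*, *Tpx2* and *Kif20a*. CHR was found in 12 of the 17 mitotic promoters (70.6%), in 2 of 15 S phase promoters (13.3%) and in 17.9% of all 32851 promoters of this length. A CCAAT box was found in 15 of the 17 mitotic promoters (88.2%), 9 of the 15 S phase promoters (60.0%) and 37.4% of all. An E2F word was found in 5 of the 15 S phase promoters (33.3%), in 1 of the 17 mitotic ones (5.88%), which was that of *Cdk1*, and in 2.27% of all. These matches describe the letters in this window and were not tested against the expression values.

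Across the 7 tissues the cell cycle genes were highest in small intestine, the tissue of continuous epithelial renewal. Of the 38 genes 37 had their highest FPKM there, while small intestine was the highest tissue for 27.9% of the 14692 genes with a mean of at least 1 FPKM. The summed FPKM of the 38 genes was 773 in small intestine, 121 in WAT, 59.2 in brain, 53.6 in liver, 50.8 in BAT, 33.3 in heart and 32.8 in TA. There was 1 library per tissue, so these are values without a test. The sums are FPKM as deposited. Median-ratio scaling factors were 1.58 in WAT, 1.41 in small intestine, 1.28 in brain, 1.00 in BAT, 0.781 in liver, 0.747 in heart and 0.579 in TA. The order of the tissues below small intestine depends on whether the sums are divided by these factors. All 38 genes reached 1 FPKM in small intestine, 23 in WAT, 14 in BAT and in liver, 13 in brain, 11 in TA and 9 in heart.

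The lead of small intestine was larger for mitotic than for S phase genes. With 0.1 added to each FPKM, the median ratio of the highest to the next tissue was 11.4 over the 22 mitotic genes and 2.51 over the 16 S phase genes. *Ube2c*, which encodes the ubiquitin-conjugating enzyme of the anaphase-promoting complex, was the highest of all at 84.4 FPKM in small intestine, against 3.08 in WAT and between 0.305 and 2.48 in the other tissues. *Mki67*, whose product coats mitotic chromosomes and is the common proliferation marker Ki-67, reached 67.8 FPKM in small intestine. It was 3.76 in WAT, 1.09 in BAT, 0.649 in liver, 0.551 in heart, 0.330 in brain and 0.112 in TA. *Top2a*, the topoisomerase that untangles replicated DNA, was 59.4 FPKM in small intestine, 2.45 in WAT, 1.05 in liver, 0.921 in brain, 0.615 in BAT, 0.558 in heart and 0.0318 in TA. *Cdk1*, the kinase that starts mitosis, was 5.10 FPKM in small intestine and at most 0.451 elsewhere, and it is listed at 0 in heart and liver. *Ccnb1*, its cyclin partner, was 12.8 FPKM in small intestine and at most 0.696 elsewhere. The kinase gene *Bub1* of the spindle checkpoint is listed at 0 in 5 tissues and had 4.60 FPKM in small intestine. The crypt stem cell genes *Olfm4*, *Ascl2* and *Lgr5* were measured in the same intestinal library at 318, 4.39 and 3.60 FPKM.

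S phase genes were less confined to small intestine, although *Cdc6* is listed at 0 in liver and *Chek1* at 0 in TA. *Pcna*, the sliding clamp of DNA polymerases that also serves DNA repair, was the highest of the 38 genes in every tissue except small intestine. It was 60.5 FPKM in small intestine, 30.0 in WAT, 16.7 in BAT, 13.9 in brain, 12.1 in liver, 9.51 in heart and 4.82 in TA. *Mcm6*, a subunit of the replicative helicase, was 22.6 FPKM in small intestine, 6.26 in WAT and between 1.19 and 2.17 in the others, and *Mcm2* was 16.1 FPKM in small intestine, 4.38 in WAT and between 1.61 and 2.77 in the others. *Mcm3* had 19.9 FPKM in small intestine, 7.22 in WAT and 2.58 in BAT, and 0.952 (brain) to 2.25 (liver) in the other tissues. *Mcm7* had 17.9 FPKM in small intestine and 16.2 in WAT, and it overlaps the exons of *Cops6* and *Ap4m1* and of 2 miRNA genes.

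The genes that left this pattern were few. *E2f1* was the exception, with 4.95 FPKM in brain and 4.66 in small intestine. *Ccne1*, which encodes cyclin E1, was next highest in brain (7.92 FPKM against 10.02 in small intestine), and *Ccne2* next highest in TA (4.29 against 6.93). *Cenpf*, a kinetochore gene, was 3.66 FPKM in heart, where it stood in second place among the 38 genes, and at most 0.796 in the tissues other than heart and small intestine. *Tk1*, thymidine kinase, was 11.99 FPKM in liver against 20.6 in small intestine. Its exons overlap those of *Afmid*, which had 54.9 FPKM in liver, and the alignment did not use strand. *Ube2c* in TA (2.48 FPKM) overlaps *Tnnc2*, which had 55389 FPKM there. The exons of *Ccne2* overlap those of *Ints8*. In each of these pairs reads from shared exons cannot be assigned to 1 gene, and the part of the partner gene was not tested.

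WAT was the next tissue after small intestine for 24 of the 38 genes. WAT was above BAT for 34 of 38, with a median ratio of 2.71, while 75.1% of all genes with a mean of at least 1 FPKM were higher in WAT than in BAT. The 4 genes higher in BAT were *Chek1*, *Ccnb2*, *Foxm1* and *Kif20a*, all below 1 FPKM in both. In BAT 52.4% of the summed FPKM belonged to the top 10 genes, in WAT 17.0%.

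**Figure D1:**
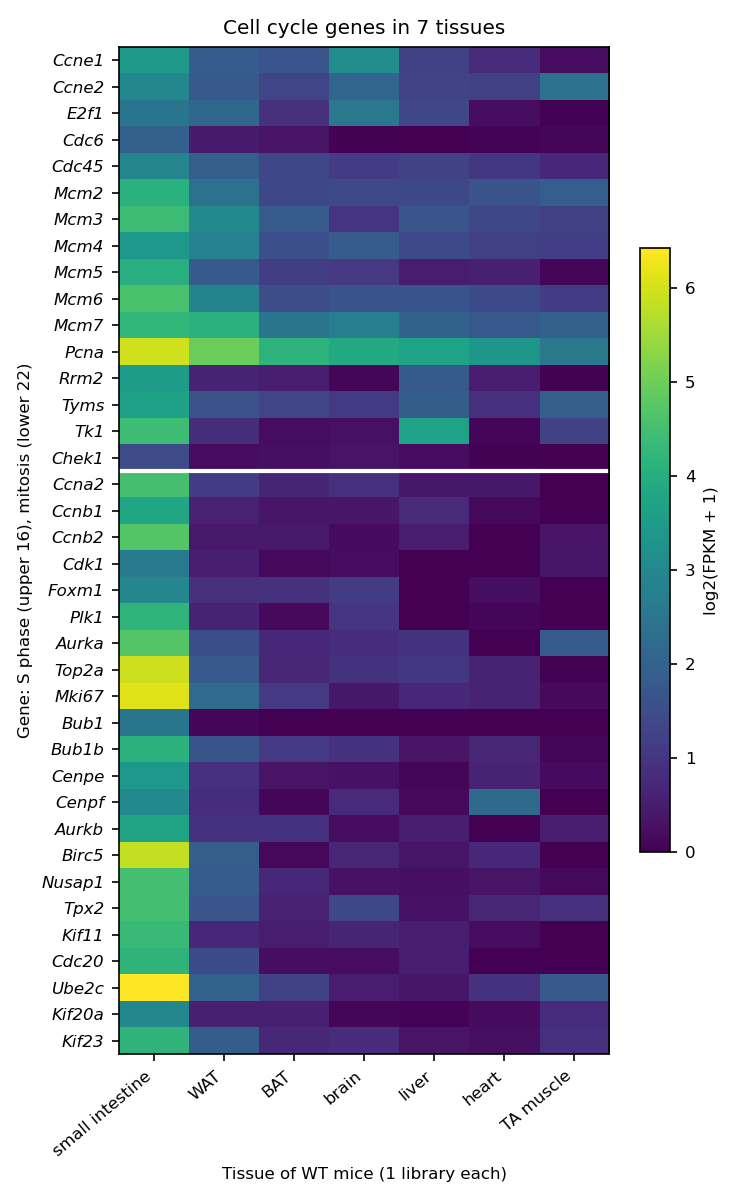
The map of log2(FPKM + 1) for each of the 38 genes (vertical axis) in 7 tissues of WT mice (horizontal axis), 1 library each, is shown with brighter colors for higher levels and a white line between S phase and mitotic genes. The column of small intestine is bright in both blocks, and the mitotic block is dark in the other tissues, where the summed FPKM of its 22 genes lay between 7.16 in liver and 33.2 in WAT against 535 in small intestine.

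In cold-exposed iWAT the cell cycle genes were higher in MCK-Musclin than in WT mice on balance, by small amounts. On log2(FPKM + 1), with genes of at least 1 FPKM on average tested by limma, 32 of the 38 genes were tested, and all 32 had a positive log2 difference of MCK-Musclin minus WT, as had 61.3% of the 12197 genes tested. Their median difference was 0.34, against 0.06 over all genes tested. The cutoff of the study, an unadjusted p under 0.05 with a log2 difference beyond 0.5, was passed upward by 9 of the 32 genes (5.04% of all genes tested) and downward by 0 (0.902% of all). An unadjusted p under 0.05 was reached by 16 of the 32 (16.5% of all). After Benjamini-Hochberg adjustment over all genes in limma, 0 of the 32 were under 0.05 (0% of all), with a smallest adjusted p of 0.148, and the smallest over all genes was 0.0912. All 3 MCK-Musclin libraries lay above all 3 WT libraries for 16 of the 32 genes (17.9% of all). The count depended on how libraries were scaled. With median-ratio scaling 4 of the 32 were past the cutoff, beside 429 of all 12197 genes upward. Of all calls 70.0% were then upward in place of 84.8%. With each library centred on general adipocyte markers 23 of the 32 were past the cutoff, beside 2375 of all 12197 genes upward. With this centring 19 of the 32 had a limma adjusted p under 0.05, as had 2714 of all genes. The median of all genes moved from 0.06 to 0.31 and that of the 32 to 0.59. The 6 genes below the minimum were *Cdc6*, *Chek1*, *Cdk1*, *Foxm1*, *Bub1* and *Cenpf*. With no minimum, 37 of the 38 had a positive difference and the same 9 passed the cutoff, while *Chek1* had a negative one (WT 0.354, 0.174 and 0.516 FPKM, MCK-Musclin 0.254, 0.282 and 0.369 FPKM).

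Among the S phase genes, those of the MCM helicase that is loaded onto replication origins stood first. *Mcm2* had 6.02, 3.84 and 5.20 FPKM in WT libraries 1, 2 and 3 and 8.18, 8.88 and 8.15 FPKM in MCK-Musclin libraries 1, 2 and 3, a log2 difference of 0.66 (SE 0.15, limma adjusted p = 0.148). *Mcm4* had 6.69, 5.004 and 5.96 FPKM in WT and 8.54, 8.99 and 9.16 in MCK-Musclin libraries, a log2 difference of 0.53 (SE 0.12, limma adjusted p = 0.148). *Mcm5* had 3.16, 2.64 and 3.22 FPKM in WT and 4.29, 4.35 and 5.47 in MCK-Musclin libraries, a log2 difference of 0.51 (SE 0.13, limma adjusted p = 0.157). In all 3 the groups were apart and WT library 2 was the lowest library. *Mcm6* also had groups apart (7.08, 4.74 and 5.85 FPKM in WT against 7.33, 8.12 and 7.62), with a log2 difference of 0.35 (SE 0.14, limma adjusted p = 0.283) that was not past the cutoff. The log2 differences of the remaining subunit genes were 0.35 for *Mcm3* (10.8, 8.09 and 10.6 FPKM in WT against 12.4, 13.6 and 12.2) and 0.19 for *Mcm7* (12.9, 11.9 and 13.1 FPKM in WT against 13.9, 13.7 and 16.2), both with groups apart. The 6 helicase genes thus all had groups that did not overlap, as had 17.9% of all genes tested in this direction. Their mean FPKM in MCK-Musclin libraries was between 1.16 and 1.67 times that in WT. Of the 8 genes of origin licensing and firing tested, the other 2, *Pcna* and *Cdc45*, had overlapping groups.

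The other S phase genes varied more. *Tk1*, which salvages thymidine for DNA synthesis, had 1.90, 2.15 and 1.20 FPKM in WT and 3.16, 2.20 and 3.52 FPKM in MCK-Musclin libraries, a log2 difference of 0.53 (SE 0.19, limma adjusted p = 0.241). Its groups were apart by a narrow gap between WT library 2 and MCK-Musclin library 2. *Afmid*, whose exons it overlaps, had 1.55, 1.39 and 0.613 FPKM in WT and 2.97, 1.55 and 1.49 FPKM in MCK-Musclin libraries, and its part in the difference was not tested. *Pcna*, the most abundant of the 38 genes, had 26.9, 24.5 and 30.7 FPKM in WT and 28.2, 34.6 and 31.2 in MCK-Musclin libraries, with overlapping groups and a log2 difference of 0.19 (SE 0.12, limma adjusted p = 0.469). *E2f1* had groups apart (2.31, 2.02 and 2.16 FPKM against 2.82, 2.68 and 2.91) and a log2 difference of 0.27 (SE 0.11). *Rrm2* and *Tyms*, for the supply of deoxynucleotides, *Ccne1*, *Ccne2* and the helicase activator gene *Cdc45* had overlapping groups, with log2 differences between 0.07 for *Cdc45* and 0.47 for *Rrm2*.

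Among the mitotic genes, 5 of the 18 tested passed the cutoff upward (5.04% of all genes tested), and 0 had a limma adjusted p under 0.05. *Nusap1*, for a protein that bundles spindle microtubules, had the largest difference of the 32 genes, with 2.42, 1.82 and 3.16 FPKM in WT and 3.23, 5.27 and 5.73 FPKM in MCK-Musclin libraries, a log2 difference of 0.72 (SE 0.22, limma adjusted p = 0.194). *Tpx2*, for a spindle assembly factor that activates Aurora A, had 3.20, 1.95 and 4.54 FPKM in WT and 4.84, 5.62 and 6.35 in MCK-Musclin libraries, a log2 difference of 0.68 (SE 0.23, limma adjusted p = 0.216). In both, the highest WT library was number 3 and lay just under MCK-Musclin library 1. The exons of *Nusap1* overlap those of *Oip5*, and the part of *Oip5* was not tested. *Oip5* had 0.430, 0.503 and 0.359 FPKM in WT and 1.29, 0.536 and 0.304 FPKM in MCK-Musclin libraries. *Bub1b*, for the spindle checkpoint protein BubR1, had 2.83, 2.62 and 2.79 FPKM in WT and 5.34, 3.30 and 5.09 FPKM in MCK-Musclin libraries, a log2 difference of 0.55 (SE 0.16, limma adjusted p = 0.188). Here the 3 WT libraries were alike. *Top2a* had 5.08, 3.41 and 7.31 FPKM in WT and 7.60, 8.04 and 8.68 FPKM in MCK-Musclin libraries, a log2 difference of 0.59 (SE 0.22, limma adjusted p = 0.254). *Plk1*, for a mitotic kinase, had 0.610, 0.996 and 1.90 FPKM in WT and 2.13, 1.89 and 2.11 FPKM in MCK-Musclin libraries, so its groups overlapped at WT library 3, with a log2 difference of 0.53 (SE 0.21, limma adjusted p = 0.280).

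The marker gene *Mki67* was not past the cutoff. It had 6.19, 5.82 and 11.6 FPKM in WT and 10.3, 7.98 and 10.5 FPKM in MCK-Musclin libraries, a log2 difference of 0.30 (SE 0.24, limma adjusted p = 0.567). WT library 3 was the highest of all 6, and the other 2 WT libraries were below every MCK-Musclin library. *Birc5*, for survivin of the chromosomal passenger complex, showed the same order with a wider spread, with 3.12, 2.30 and 7.67 FPKM in WT and 7.22, 4.80 and 7.53 FPKM in MCK-Musclin libraries and a log2 difference of 0.60 (SE 0.35, limma adjusted p = 0.438). *Kif23*, for a kinesin of cytokinesis, had groups apart (2.65, 2.52 and 2.98 FPKM against 4.28, 3.64 and 4.41) and missed the cutoff by the size of its difference, 0.46 (SE 0.12, limma adjusted p = 0.157). *Aurka*, *Cenpe* and *Cdc20* had groups apart with log2 differences of 0.38, 0.34 and 0.29. *Ccna2*, *Ccnb1*, *Ccnb2*, *Aurkb*, *Kif11*, *Kif20a* and *Ube2c* had overlapping groups and log2 differences of 0.27 to 0.48.

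**Figure D2:**
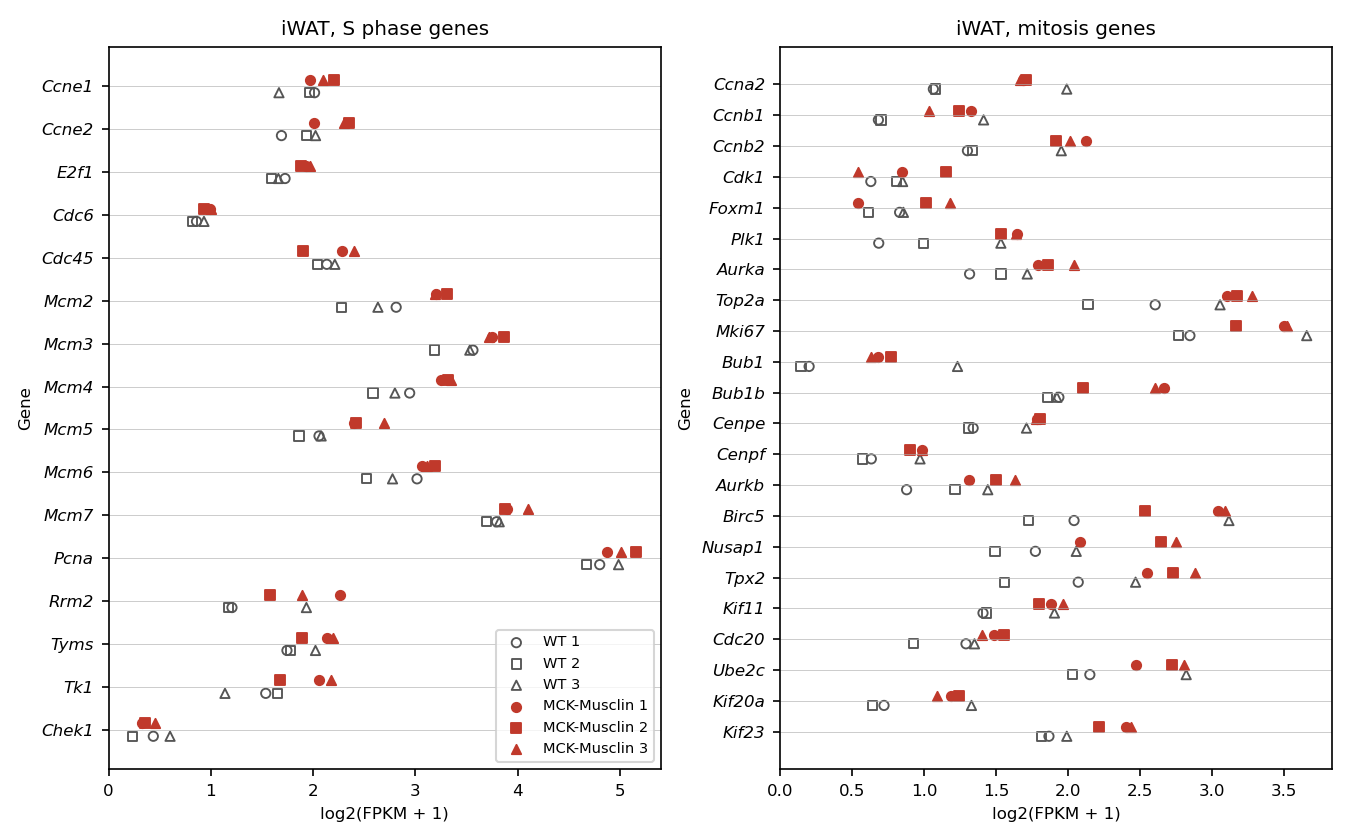
The plot of log2(FPKM + 1) (horizontal axis) in each iWAT library shows 1 line per gene, with open grey symbols for the 3 WT and filled red symbols for the 3 MCK-Musclin libraries. In the mitotic panel the open triangle, WT library 3, reaches or passes the lowest red symbol for 14 of the 22 genes and lies right of all red symbols for 7, as for *Mki67* with 11.6 FPKM, while the S phase panel shows the 3 WT libraries closer together.

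WT library 3 carried most of the spread of the mitotic genes. It was the highest WT library for 21 of the 22 mitotic genes, at a median of 1.74 times the mean of WT libraries 1 and 2, and for 9 of the 16 S phase genes, at a median of 1.11 times. Over all genes tested it was the highest WT library for 32.6%, at a median of 0.989 times. It reached or passed the lowest MCK-Musclin library for 14 of the 22 mitotic and 7 of the 16 S phase genes. All MCK-Musclin libraries were above both WT libraries 1 and 2 for 33 of the 38. This count leaves out WT library 3, the highest WT library for 30 of the 38. It was not taken over all genes, so it has no share to be set beside. The mean of log2(FPKM + 1) over the 22 mitotic genes was 1.38, 1.31 and 1.88 in WT and 1.87, 1.88 and 1.95 in MCK-Musclin libraries, so WT library 3 lay within the MCK-Musclin values. Over the 16 S phase genes the mean was 2.27, 2.12 and 2.30 in WT and 2.52, 2.49 and 2.60 in MCK-Musclin libraries, with the groups apart. Without WT library 3, 16 of the 31 cell cycle genes then tested passed the cutoff, beside 545 of all 12179 genes upward. *Mki67*, *Ccna2*, *Ccnb1* and *Birc5* were among the 16 and *Tk1* was not, and the median difference of the cell cycle genes was 0.51. Without WT library 2 the number past the cutoff was 4 (533 of all 12210 genes upward). It was 5 without MCK-Musclin library 1 (699 of all 12182) and 3 without MCK-Musclin library 3 (527 of all 12197). *Mcm2* and *Nusap1* were past the cutoff with every single library left out. *Ube2c*, whose exons overlap *Tnnc2*, was also highest in WT library 3 (6.06 FPKM), the library in which *Tnnc2* was highest (1829 FPKM).

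Markers of lymphocytes moved with the genotype in the same 6 libraries. All 10 B cell markers tested were past the cutoff upward, and their summed FPKM was 172 to 336 in WT and 380 to 494 in MCK-Musclin libraries. Of 12 T cell markers tested 9 were past it upward, with sums of 150 to 227 and 293 to 325. Of 6 lymph node stroma markers tested 5 were, with sums of 159 to 335 and 354 to 577. Germinal centre B cells are the B cells that divide in lymph nodes, and their listed markers summed to 7.27 to 14.1 FPKM in WT and 15.3 to 20.9 in MCK-Musclin libraries, with 0 of 3 tested past the cutoff. WT library 3, the highest WT library for mitotic genes, had the lowest B cell sum (172 FPKM) and lymph node stroma sum (159 FPKM). Macrophage markers summed to 673 to 702 FPKM in WT and 678 to 978 in MCK-Musclin libraries (1 of 12 past the cutoff), endothelial markers to 231 to 254 and 215 to 256 (0 of 6), adipose progenitor markers to 155 to 176 and 154 to 226 (0 of 5) and plasma cell markers to 149 to 235 and 203 to 213 (1 of 5). The 10 general adipocyte markers all had negative differences with 0 past the cutoff, and summed to 15404 to 16767 and 13531 to 14836 FPKM. The part of any of these cells in the cell cycle genes was not tested.

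Genes of the cell cycle outside the 38 were taken from a further list of 102, of which 84 were tested in iWAT. Of these, 11 (13.1%) were past the cutoff upward (5.04% of all genes tested) and 0 downward (0.902% of all). Their median log2 difference was 0.24, against 0.06 over all genes tested. Among 28 further mitotic genes all 28 differences were positive and 9 passed (32.1%). Among 24 further replication genes 23 were positive and 2 passed (8.33%), a share near that of all genes. An unadjusted limma p under 0.05 was reached by 10 of the 24 (16.5% of all). Groups were apart upward for 12 of the 24 (17.9% of all). Of all genes tested 61.3% had a positive difference. *Rfc3*, a subunit of the loader that places PCNA on DNA, had 5.03, 4.58 and 6.11 FPKM in WT and 8.11, 9.72 and 8.50 FPKM in MCK-Musclin libraries, a log2 difference of 0.65 (SE 0.13, limma adjusted p = 0.143). *Pttg1*, which encodes securin, the guard of sister chromatid cohesion, had 24.3, 30.5 and 30.9 FPKM in WT and 47.9, 36.9 and 52.1 FPKM in MCK-Musclin libraries, a log2 difference of 0.65 (SE 0.16, limma adjusted p = 0.149). The kinetochore genes *Spc25* and *Ndc80* had log2 differences of 0.66 and 0.58, and *Hmgb2*, *Kif22*, *Cks2* and *Racgap1* of 0.60, 0.57, 0.57 and 0.55, all with groups apart.

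The genes that hold the cycle back did not share this direction. Of 16 inhibitors and quiescence genes tested 7 had a positive and 9 a negative difference (61.3% of all genes tested were positive). Of the 16, 0 passed the cutoff in limma, 3 had an unadjusted p under 0.05 (16.5% of all), and their median was -0.01. *Cdkn1a*, which encodes p21, had 4.47, 6.75 and 7.93 FPKM in WT and 5.29, 6.20 and 6.22 FPKM in MCK-Musclin libraries. *Cdkn1b* (p27) had log2 difference 0.24 (SE 0.20) and *Cdkn1c* (p57) -0.21 (SE 0.28), both with overlapping groups. The groups were apart upward for the antiproliferative genes *Btg2* (log2 difference 0.36, SE 0.10) and *Btg1* (0.29, SE 0.10) and downward for *Tob1* (-0.49, SE 0.15). None of the 7 G1 cyclin and kinase genes and of the 9 other E2F family genes tested passed the cutoff in limma, although 2 and 1 of them had an unadjusted p under 0.05.

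**Figure D3:**
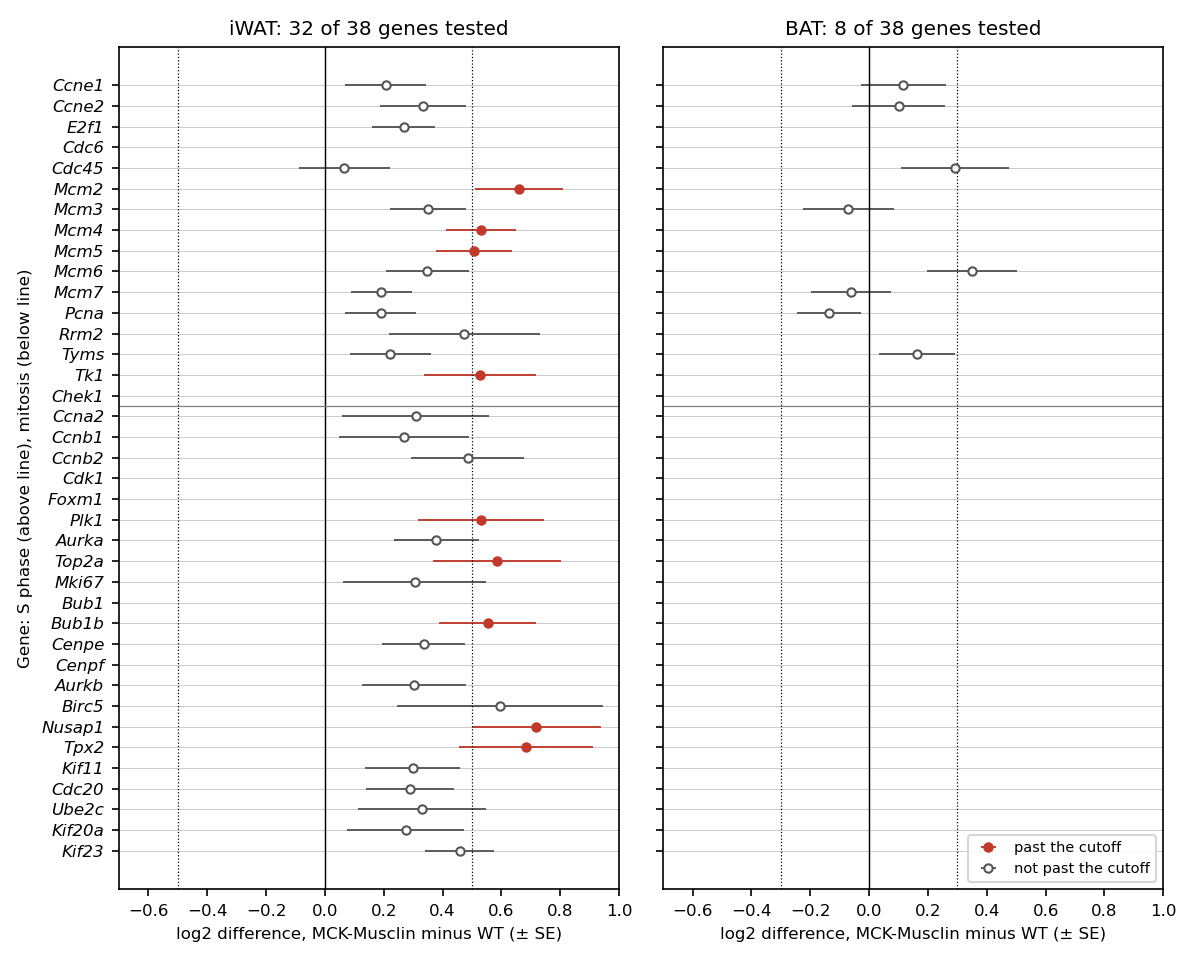
The plot of log2 differences of MCK-Musclin minus WT (horizontal axis, with the standard error as bars) shows each gene tested in iWAT (left) and BAT (right), in red where past the cutoff marked by dotted lines. All 32 points in iWAT lie right of 0 and 9 of them are red, while the 8 points in BAT lie between -0.14 and 0.35 with none red.

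In cold-exposed BAT most of the cell cycle genes were too low for a comparison. Only 8 of the 38 had a mean of at least 1 FPKM, all of them S phase genes, and none of the 22 mitotic genes did. At the cutoff of the study for BAT, an unadjusted p under 0.05 with a log2 difference beyond 0.3, 0 of the 8 were higher (1.85% of the 10893 genes tested) and 0 lower (2.15%). Also 0 of the 8 had an unadjusted limma p under 0.05 (4.89% of all) or an adjusted p under 0.05 (0.00918% of all, which is 1 gene). The median log2 difference of the 8 was 0.11, against -0.01 over all genes tested. The groups were apart upward for 1 of the 8 (4.38% of all) and downward for 1 (5.63% of all).

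The gene with groups apart upward was *Mcm6*, with 0.636, 0.652 and 1.10 FPKM in WT and 1.15, 1.43 and 1.26 FPKM in MCK-Musclin libraries, a log2 difference of 0.35 (SE 0.15, limma adjusted p = 0.968). Its highest WT library lay just under the lowest MCK-Musclin library. The gene with groups apart downward was *Pcna*, the most abundant of the 38 in BAT as well, with 9.46, 8.44 and 7.66 FPKM in WT and 7.62, 7.64 and 7.63 FPKM in MCK-Musclin libraries, a log2 difference of -0.14 (SE 0.11, limma adjusted p = 0.968). The gap between its groups was small beside the spread of the WT libraries. *Mcm7* had 3.54, 3.17 and 2.83 FPKM in WT and 2.52, 3.38 and 3.13 FPKM in MCK-Musclin libraries (log2 difference -0.06, SE 0.14). *Cdc45* had 1.43, 2.53 and 2.56 FPKM in WT and 3.26, 2.43 and 2.82 FPKM in MCK-Musclin libraries (log2 difference 0.29, SE 0.18). *Tyms*, thymidylate synthase, had 1.87, 1.53 and 1.60 FPKM in WT and 1.94, 1.77 and 2.26 FPKM in MCK-Musclin libraries (log2 difference 0.16, SE 0.13). *Ccne2* had 1.02, 1.68 and 1.75 FPKM in WT and 1.53, 1.59 and 1.80 FPKM in MCK-Musclin libraries (log2 difference 0.10, SE 0.16). *Ccne1* and *Mcm3* had log2 differences of 0.12 and -0.07, and the groups of these 3 genes overlapped.

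The mitotic genes of BAT were carried by 1 library. Their summed FPKM was 7.10, 4.67 and 6.74 in WT and 13.0, 4.30 and 4.56 in MCK-Musclin libraries. *Mki67* had 0.918, 0.534 and 0.755 FPKM in WT and 2.18, 0.506 and 0.392 FPKM in MCK-Musclin libraries, and *Top2a* had 0.443, 0.249 and 0.197 FPKM in WT and 0.724, 0.480 and 0.322 FPKM in MCK-Musclin libraries. MCK-Musclin library 1 was the highest of the 6 for both. *Cdk1* was listed at 0 in 3 of the 6 libraries and had 0.310 FPKM in MCK-Musclin library 1. The S phase genes summed to 22.4 to 23.6 FPKM in WT and 23.2 to 24.8 in MCK-Musclin libraries. B cell markers summed to 0.616 to 1.40 FPKM in WT and 0.631 to 0.828 in MCK-Musclin libraries of BAT and T cell markers to 1.43 to 2.45 and 1.52 to 3.13, none of them high enough to be tested. Macrophage markers summed to 55.0 to 69.1 FPKM in WT and to 143, 53.0 and 60.3 FPKM in MCK-Musclin libraries, with 1 of 10 tested past the cutoff (*Csf1r*, upward). MCK-Musclin library 1, which had the most mitotic RNA, had the highest macrophage sum and the highest T cell sum (3.13 FPKM), and the part of these cells was not tested. Of 48 further cell cycle genes tested in BAT, 1 was past the cutoff upward (*Gins2*, of the replicative helicase complex, log2 difference 0.38) and 2 downward (the antiproliferative gene *Tob1*, -0.58, and the inhibitor *Cdkn2c*, -0.43). Over all genes tested in BAT the shares were 1.85% upward and 2.15% downward.

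**Figure D4:**
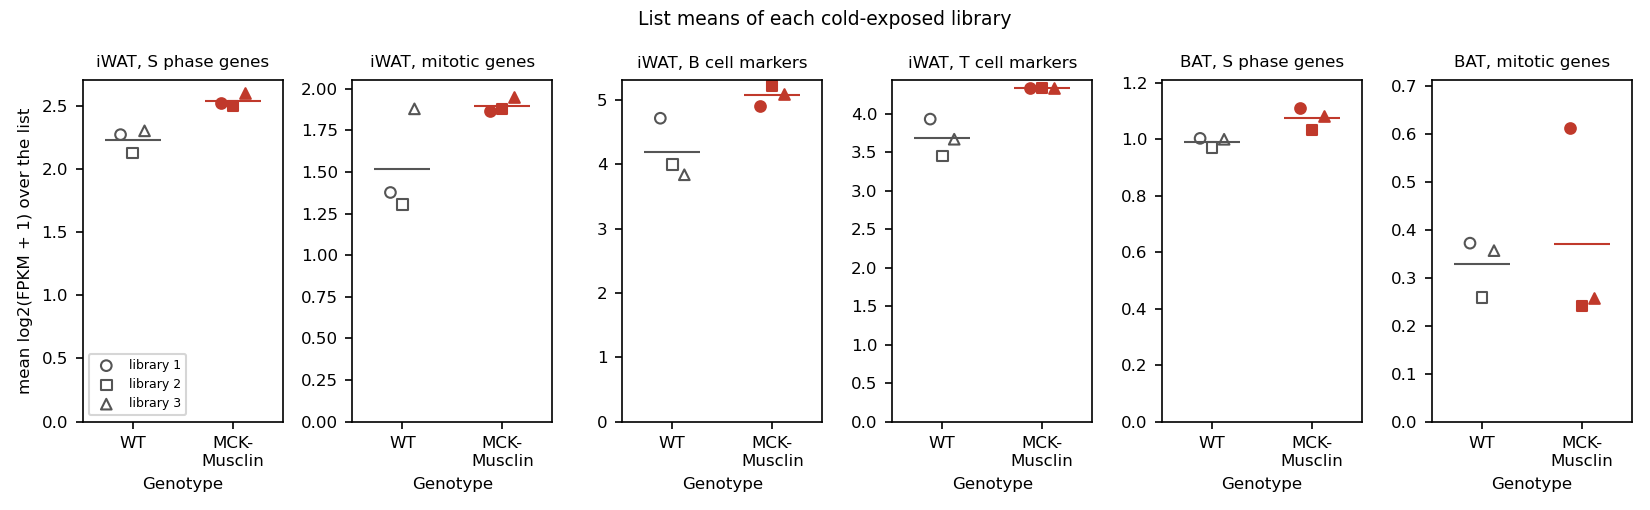
The plot of the mean log2(FPKM + 1) of a gene list (vertical axis, from 0) in each cold-exposed library shows WT in grey and MCK-Musclin in red, with 1 symbol per library number and a line at the group mean. WT library 3 of iWAT (open triangle) lies at 1.88 for the mitotic genes beside the MCK-Musclin libraries and at 3.84 for the B cell markers below all others, and MCK-Musclin library 1 of BAT (filled circle) stands alone at 0.612 for the mitotic genes.

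The change with genotype was then compared between the depots, as the log2 difference in BAT minus that in iWAT in limma over the 12 libraries. Of 9757 genes tested in both depots 982 (10.1%) had an unadjusted p under 0.05 and 0 an adjusted p under 0.05, and 0 of the 8 cell cycle genes tested had an unadjusted p under 0.05 (smallest adjusted p = 0.498). The sources used here do not say whether BAT and iWAT libraries of 1 number came from 1 mouse, and the fit treated all 12 as independent. The 30 other genes were not tested because of their low values in BAT. With no minimum, 8 of the 38 had an unadjusted p under 0.05 (11.6% of the 13640 genes then tested), all with the smaller value in BAT, and 0 an adjusted p under 0.05 (smallest 0.304). These were *Mcm2*, *Mcm4*, *Plk1*, *Aurka*, *Bub1b*, *Nusap1*, *Tpx2* and *Cdc20*, and their BAT values lay between 0 and 1.16 FPKM, where adding 1 before the logarithm holds any difference small. Levels in both depots come from tables normalised separately and were not tested against each other. Side by side, the 38 genes summed to 116 to 166 FPKM in WT iWAT and 27.3 to 30.7 FPKM in WT BAT.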

How the data were processed

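RNA was isolated by kit from WAT and iWAT and with TRIzol from the other tissues, and poly(A) RNA was sequenced on a NovaSeq. The authors filtered reads with fastp and bowtie2, aligned them to mm10 (GRCm38) with HISAT2 without using strand, and deposited FPKM values per gene and library, calculated with StringTie per the methods of the study. FPKM depends on what the most abundant genes take up, and read counts were not analysed here. The submitters' processing notes also name Cuffdiff. The iWAT table lists fewer genes than the others, by a selection that is not stated, and also holds fold changes, p-values and mean signals of the authors' own comparison, which were not used. Every per-library column was used. Lines that repeat a gene (287 each in the tables of 7 tissues and of BAT) were dropped.

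Within each depot log2(FPKM + 1) was compared in R 4.3.3 using limma 3.58.1 (lmFit, and eBayes allowing a trend) over genes with a mean of at least 1 FPKM in the 6 libraries, with Benjamini-Hochberg adjustment over all genes tested. A log2 difference on this scale understates the change of low genes. The design text states 3 biological replicates a group. The cutoff was that of the study, an unadjusted p under 0.05 with a log2 difference beyond 0.5 (iWAT) or 0.3 (BAT). Depots were compared in 1 fit of 12 libraries. Positions and exon overlaps came from GENCODE (GRCm38) and promoters from RefSeq. The limma step was tested on simulated data. Alternatives were a pseudocount of 0.1, no minimum or a mean of 5 FPKM, TPM, median-ratio scaling, centring on adipocyte markers, a block for the replicate number, eBayes with robust estimation or with no trend, a log2 cutoff of 0.3 in iWAT and each library left out.

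The 38 genes, the further cell cycle genes and the marker lists (B cells, germinal centre B cells, plasma cells, T cells, lymph node stroma, macrophages, endothelial cells, adipose progenitors, general adipocytes and intestinal crypt cells) were chosen with earlier results of these data known. Values in every library were given for genes past the cutoff, the 5 of highest mean FPKM in a depot, *Mki67* and *Top2a*. In the 7 tissues the genes named were the 3 highest in a tissue, those that left the common pattern, and *Mki67*, *Top2a*, *Cdk1*, *Ccnb1*, *Mcm2*, *Mcm6* and *Pcna*. Of the further genes the 8 with the largest difference past the cutoff and *Cdkn1a*, *Cdkn1b* and *Cdkn1c* were named. The remaining genes were named after their values were seen. Tables were handled with Python 3.11.15, numpy 2.4.6 and pandas 2.3.3, and figures drawn with matplotlib 3.10.9.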

Additional observations from a re-analysis of the deposited data

Results flagged for a closer look

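*Cdc20*, which activates the anaphase-promoting complex, was the 1 gene of the 38 whose groups were apart in opposite directions in the 2 depots. Of all genes tested, 17.9% had groups apart upward in iWAT and 5.63% had groups apart downward in BAT. The share of all genes with both was not counted, so 1 of 38 cannot be set beside it. In iWAT it had 1.45, 0.903 and 1.55 FPKM in WT libraries and 1.80, 1.94 and 1.65 FPKM in MCK-Musclin libraries. In BAT it had 0.217, 0.274 and 0.391 FPKM in WT libraries and 0.131, 0.0278 and 0.201 FPKM in MCK-Musclin libraries, all below the minimum for a test. In the limma fit with no minimum, the log2 difference in BAT minus that in iWAT was -0.50 (SE 0.16, adjusted p = 0.304), so the difference between depots was not past an adjusted threshold. The exons of *Cdc20* overlap those of *Elovl1*, and the part of that gene was not tested.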

How the results depend on the processing

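In iWAT the number of cell cycle genes past the cutoff was 9 (615 of all 12197 genes upward). It became 3 with a mean of at least 5 FPKM, where 9 of the 38 were tested (433 of all 8291 upward). It was 4 with median-ratio scaling (429 of all 12197 upward) and 23 with centring on adipocyte markers (2375 of all 12197 upward). With single libraries left out it was 3 to 16, beside 527 to 844 of all genes upward. A log2 cutoff of 0.3 gave 15. The count over all genes at 0.3 is not given here, so the 15 have no share beside them. The median difference of 0.34 became 0.51 with a pseudocount of 0.1 and 0.59 with centring, and was 0.29 to 0.51 with single libraries left out. All genes past the cutoff in iWAT numbered 725 (615 higher and 110 lower), 2396 with centring, 806 with TPM (605 higher and 201 lower) and 613 with median-ratio scaling (429 higher and 184 lower). The differences of the 32 genes tested in iWAT stayed positive under every alternative except for *Cdc45*, which was -0.038 without MCK-Musclin library 3 and up to 0.21 without another library. In BAT the number past the cutoff was 0 and became 1, *Mcm6*, with TPM, centring or eBayes without a trend, and was 0 to 1 with single libraries left out. The median of 0.11 became -0.14 with a mean of at least 5 FPKM, where only *Pcna* was tested, and 0.21 with centring. All genes past the cutoff in BAT numbered 436, and 216 with a mean of at least 5 FPKM. Signs turned in BAT for *Mcm7* (0.043) and *Mcm3* (0.034) with centring, and with single libraries left out *Ccne2* ranged from -0.041 to 0.18, *Mcm7* from -0.13 to 0.029 and *Mcm3* from -0.13 to 0.017. For the depot difference the number of cell cycle genes with an unadjusted p under 0.05 was 0 and became 8 with no minimum, where all 38 were tested, 2 with centring and 1 without a trend, and was 0 to 2 with single libraries left out. Beyond what these alternatives themselves change, the cause was not tested. With the replicate number as a block (replicate block), 9 cell cycle genes in iWAT and 0 in BAT were past the cutoff, 8 of the 9 shared with the fit without it, and all genes numbered 774 in iWAT. Whether equal numbers pair WT with MCK-Musclin samples is not stated in the sources used here. The correlations of same-numbered deviations were 0.235, 0.0615 and 0.107 in iWAT and -0.095, -0.0046 and 0.0094 in BAT, which cannot decide it. In iWAT 1 of the 6 libraries, MCK-Musclin library 2, correlated best with another number. Read depth is unknown in iWAT, and most values of mitotic genes in BAT were under 1 FPKM.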

Other observations

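The cell type markers of BAT were read beside its cell cycle genes as well. General adipocyte markers summed to 9153 to 9889 FPKM in WT and 8466 to 9488 FPKM in MCK-Musclin libraries, with 1 of 10 past the cutoff, downward. Endothelial markers summed to 163 to 176 FPKM in WT and 147 to 155 FPKM in MCK-Musclin libraries, and adipose progenitor markers to 22.0 to 30.7 and 29.7 to 30.1 FPKM, with 0 past the cutoff in limma in either list. Plasma cell markers summed to 16.5 to 24.4 and 14.1 to 18.1 FPKM, and lymph node stroma markers to 1.83 to 3.64 and 1.91 to 5.64 FPKM. Of the germinal centre B cell list 1 gene, *Bcl6*, which other cell types express too, was high enough to be tested in BAT, and it was past the cutoff upward with a log2 difference of 1.02. The intestinal crypt list had 1 gene tested in BAT and 2 in iWAT, of which 1, *Lyz1* in iWAT, was past the cutoff upward. In both fat tables the crypt stem cell gene *Olfm4* was either listed at 0 or not among the genes listed.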
